A study of Homo sapiens with 6 samples.

Results

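Transcripts of 9 pluripotency factors, POU5F1, NANOG, PRDM14, ZFP42, DPPA2, DPPA4, KLF4, UTF1 and ZSCAN10, were followed from human embryonic stem cells (hESCs) to neuromesodermal progenitor-like (NMP-L) cells. The members were chosen by gene symbol, and all 9 of 9 symbols had a row among the 27672 genes of the RNA-seq table. The study sequenced polyadenylated RNA from 3 biological replicates of undifferentiated H9 hESCs, an established embryonic stem cell line, at day 0 and from 3 replicates of NMP-L cells made from the same line at day 3. Per the labels, the hESCs were untreated and grew without feeders on fibronectin in DEF medium with 30 ng/ml bFGF, a fibroblast growth factor, and 10 ng/ml Noggin, an antagonist of BMP signalling. The NMP-L cells had then spent 3 days in N2/B27 basal medium (Neurobasal in one label) with bFGF at 20 ng/ml and, at 3 µM, the compound CHIR99021, which inhibits the kinase GSK3 and so activates Wnt signalling. The study's methods give another hESC medium and add inhibitors of BMP and TGFβ signalling from day 2, which the labels of these libraries do not list. Both groups came from 1 cell line. The labels call the libraries biological replicates without saying how they were separated, and the p-values measure the spread between these libraries. The question was which factors persisted at day 3 and which were lost.

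Pluripotent cells hold their state through a small set of transcription factors that bind one another's regulatory regions. OCT4, the product of POU5F1, pairs with SOX2 on DNA, and NANOG acts with this pair. PRDM14, ZFP42 (REX1), ZSCAN10, KLF4, UTF1 and the DPPA2 and DPPA4 pair act around this core, as DNA-binding or chromatin-bound proteins. Neuromesodermal progenitors are a caudal population of the embryo that gives rise to spinal cord and paraxial mesoderm, and they are recognised by the joint presence of SOX2 and brachyury, the product of the gene T.

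Library totals lay between 19454543 and 19744142 expected counts in hESCs and between 20687062 and 23036426 in NMP-L cells. A level between libraries is given as counts per 1000000 (CPM) after TMM scaling. TMM sets the libraries to a common scale on the assumption that most genes do not change. A level between genes is given as transcripts per 1000000 (TPM), which also divides by transcript length. The labels of both groups were checked against markers. T was at 0 to 2 counts in hESCs and at 293 to 629 in NMP-L cells, at least 136.6-fold higher against a floor of 3 counts per library. CDX2, a caudal homeobox gene, was likewise at least 136.57-fold higher. SOX2 stood at 266 ± 12.6 CPM before and 278 ± 23.6 CPM after differentiation (SD, n = 3). Of the 10 NMP-like cell markers listed, FGF17 went the other way, from 5.20 ± 1.03 to 0.69 ± 0.27 CPM. FGF8 was at 4 to 11 counts in hESCs and 1 to 3 in NMP-L cells, too few to be tested.

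All 9 factors fell between hESCs and NMP-L cells under TMM scaling, with KLF4 alone changing sign relative to GAPDH (log2 fold change 0.08, edgeR adjusted p = 0.70), and none was lost to the detection floor. The share of the hESC level that was kept ran from 9.31% for UTF1, through 16.6% for NANOG, 27.0% for DPPA2, 31.1% for PRDM14, 38.4% for ZFP42, 44.6% for DPPA4, 53.0% for POU5F1 and 56.6% for ZSCAN10, to 71.5% for KLF4. All 9 passed the test (edgeR's quasi-likelihood test with Benjamini-Hochberg adjustment over all genes, adjusted p under 0.05), as did 55.8% of the 15517 genes tested. By direction, 26.7% of tested genes were called lower and 29.1% higher, against 9 lower and 0 higher among the factors. At least 2-fold lower were 6 of the 9 factors, UTF1, NANOG, DPPA2, PRDM14, ZFP42 and DPPA4, and 9.18% of the genes tested. Every NMP-L library lay below every hESC library for all 9, which held for 29.5% of tested genes. The median log2 fold change was -1.38 over the 9 factors and 0.03 over all genes tested. In these bulk libraries, fewer cells that make a transcript and less of it per cell cannot be told apart.

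**Figure D1:**
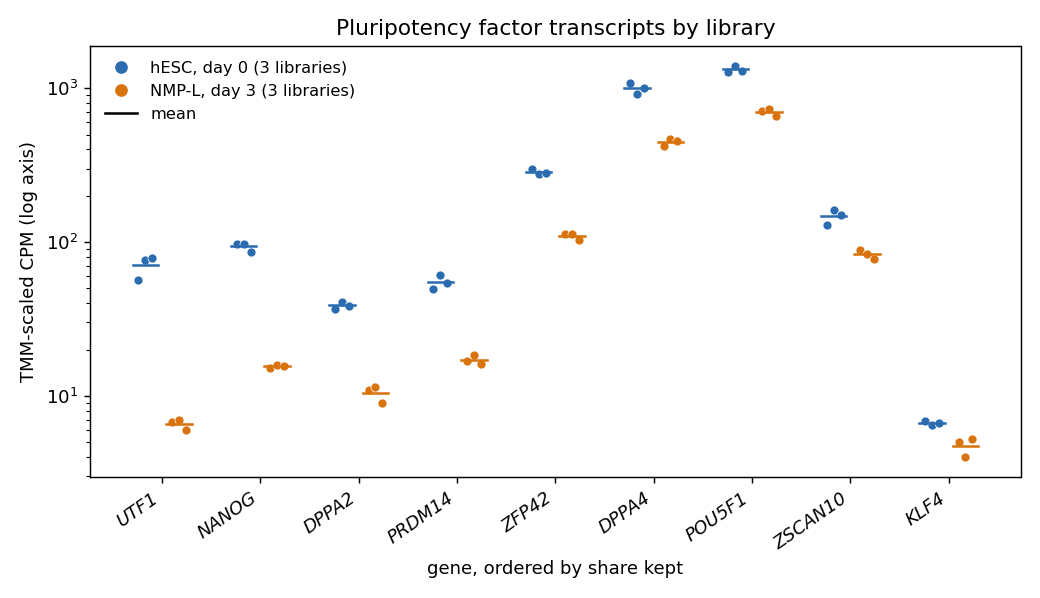
Level of each factor in every library as TMM-scaled CPM on a log axis, with the 3 hESC libraries (day 0) in blue, the 3 NMP-L libraries (day 3) in orange, and a short line at each group's mean. For each of the 9 genes the orange points lie below the blue ones under this scaling (relative to GAPDH, KLF4 changes sign), with the widest gap at UTF1 and the narrowest at KLF4.

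POU5F1 had 23796, 27360 and 24905 expected counts in hESCs and 15924, 15430 and 15713 in NMP-L cells. The groups did not overlap, and POU5F1 remained the most abundant of the 9 factors at day 3. Its level went from 1326 ± 71.9 to 702 ± 40.9 CPM (SD, n = 3), a log2 fold change of -0.92 (SE 0.07, edgeR adjusted p = 1.2e-06), and 53.0% was kept with a 95% interval of 47.3 to 59.3%. Per length, POU5F1 stood at 1990 TPM in hESCs, rank 91 of the 19883 genes above 0, and at 1128 TPM in NMP-L cells, rank 120 of 20162. The gene, ENSG00000204531, lies on the minus strand of chromosome 6 from 31132114 to 31148508 (GRCh37). POU5F1 counts were not whole numbers, since RSEM divides reads that also match its copies. The copies were low beside it, with POU5F1B at 31.1, 37.3 and 45.4 counts in hESCs and 48.6, 33.5 and 33.7 in NMP-L cells. POU5F1B did not pass the test (log2 fold change -0.17, edgeR adjusted p = 0.57), and its row is uncertain because of the shared reads. TCF19, on the opposite strand, overlaps the annotated span of POU5F1 and had between 354 and 444 counts in every library.

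NANOG, a homeodomain factor that holds the network in its self-renewing state, kept a smaller share than POU5F1, with 95% intervals that did not overlap. Its counts were 1831, 1887 and 1655 in hESCs and 340, 332 and 372 in NMP-L cells. No library of one group came near the range of the other, and the 3 NMP-L libraries were close together. The level went from 93.7 ± 6.37 to 15.5 ± 0.28 CPM, a 6.03-fold fall (log2 fold change -2.59, SE 0.09, edgeR adjusted p = 2.9e-09), with 16.6% kept (95% interval 14.4 to 19.1%). Set against POU5F1 in the same library, NANOG was at 5.08, 4.56 and 4.39% of the POU5F1 TPM in hESCs and at 1.41, 1.42 and 1.56% in NMP-L cells. Only 1.37% of the tested genes, 212 in number, had a steeper fall than NANOG, compared with 10.5% for POU5F1. NANOG (ENSG00000111704) lies on the plus strand of chromosome 12 from 7940390 to 7951742 (GRCh37). The 250 bases before its RefSeq start site (GRCh38.p14, chr12:7789152-7789401, plus strand) are shown because they hold a POU motif and a SOX motif side by side. TTTGCAT and, 1 base further, ACAATG stand in capitals with that base, 120 to 107 bases before the start site.
NANOG: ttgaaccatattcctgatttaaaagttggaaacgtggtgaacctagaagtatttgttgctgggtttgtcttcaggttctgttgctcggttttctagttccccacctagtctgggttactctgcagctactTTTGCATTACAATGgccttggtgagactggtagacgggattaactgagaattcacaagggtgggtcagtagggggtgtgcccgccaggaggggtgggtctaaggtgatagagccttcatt
Searched on both strands, TTTGCAT occurred in 3.98% and ACAATG in 9.45% of 27305 RefSeq promoter windows of this length, and the pair with 1 base between in 2 of them (0.00732%). The window also held GGGTGTG, a KLF-type motif found in 6.52% of all windows. Such matches are a description of the letters, and no binding was measured here.

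DPPA4 and DPPA2 encode SAP-domain proteins that bind each other and act on the promoters of developmental genes. DPPA4 had 20404, 17924 and 19283 counts in hESCs and 9427, 9779 and 10933 in NMP-L cells. The groups stood clearly apart, and DPPA4 was second in abundance to POU5F1 in both. It fell from 1006 ± 83.7 to 449 ± 22.6 CPM (log2 fold change -1.16, SE 0.08, edgeR adjusted p = 3.4e-07), with 44.6% kept (95% interval 39.5 to 50.4%). DPPA2 had 690, 790 and 740 counts in hESCs and 243, 240 and 216 in NMP-L cells. All 3 NMP-L libraries were low and the groups did not overlap. It fell from 38.7 ± 1.90 to 10.5 ± 1.27 CPM (log2 fold change -1.89, SE 0.12, edgeR adjusted p = 1.4e-07), with 27.0% kept (95% interval 22.6 to 32.2%). DPPA2 was at 7.13, 9.31 and 8.11% of the DPPA4 TPM in hESCs and at 5.45, 5.19 and 4.18% in NMP-L cells, and these ranges did not overlap. The change of this ratio was not tested. The genes are neighbours on the minus strand of chromosome 3 (GRCh37), DPPA2 (ENSG00000163530) from 109012635 to 109035364 and DPPA4 (ENSG00000121570) from 109044991 to 109056393, with 9627 bases between them.

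ZFP42, a zinc finger gene related to YY1 and a long-used marker of undifferentiated cells, had 5601, 5355 and 5407 counts in hESCs and 2504, 2381 and 2466 in NMP-L cells. The replicates of each group were tight and the groups far apart. ZFP42 fell from 285 ± 12.2 to 110 ± 5.75 CPM (log2 fold change -1.38, SE 0.08, edgeR adjusted p = 6.5e-08), with 38.4% kept (95% interval 34.1 to 43.2%). YY1, the ubiquitous relative, had a log2 fold change of -0.57 (SE 0.08, edgeR adjusted p = 8.7e-05). ZFP42 (ENSG00000179059) lies on the plus strand of chromosome 4 from 188916925 to 188926200 (GRCh37).

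PRDM14, a zinc finger factor that binds a regulatory region of POU5F1 in human cells, had 925, 1179 and 1040 counts in hESCs and 373, 387 and 383 in NMP-L cells. The NMP-L libraries were nearly equal and all below the hESC range. PRDM14 fell from 54.8 ± 5.64 to 17.1 ± 1.25 CPM (log2 fold change -1.68, SE 0.11, edgeR adjusted p = 2.0e-07), with 31.1% kept (95% interval 26.4 to 36.7%). CBFA2T2, a co-repressor that binds PRDM14, fell from 84.8 ± 0.98 to 40.5 ± 3.84 CPM (log2 fold change -1.07, SE 0.09, edgeR adjusted p = 1.9e-06). PRDM14 (ENSG00000147596) lies on the minus strand of chromosome 8 from 70963886 to 70983928 (GRCh37).

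KLF4, a Krüppel-like factor best known from reprogramming and the naive state, was the lowest of the 9 in both groups. Its estimated change was the smallest. Its counts were 129, 126 and 127 in hESCs and 112, 84 and 125 in NMP-L cells, which came from larger libraries. In CPM, replicate 2 of NMP-L was the lowest and replicate 3 came nearest to the hESCs, without overlap. KLF4 went from 6.66 ± 0.21 to 4.75 ± 0.65 CPM (log2 fold change -0.48, SE 0.15, edgeR adjusted p = 0.015), with 71.5% kept and a wide 95% interval of 57.2 to 89.3%. Without NMP-L replicate 2 the log2 fold change was -0.38 and the call was lost (edgeR adjusted p = 0.057). Among the tested genes 20.4% fell more steeply. KLF4 (ENSG00000136826) lies on the minus strand of chromosome 9 from 110247133 to 110252763 (GRCh37).

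UTF1, a chromatin-bound factor of undifferentiated cells, showed the steepest fall of the 9. Its counts were 1059, 1484 and 1506 in hESCs and 150, 146 and 144 in NMP-L cells. Replicate 1 was the lowest of the hESC libraries, and even so it was far above all NMP-L libraries. UTF1 fell from 70.5 ± 12.1 to 6.57 ± 0.49 CPM, 10.7-fold (log2 fold change -3.42, SE 0.14, edgeR adjusted p = 6.9e-09), with 9.31% kept (95% interval 7.48 to 11.6%). Only 91 of the tested genes (0.586%) fell more steeply. In TPM, UTF1 went from rank 1121 to rank 8193 of the genes above 0. It lies on the plus strand of chromosome 10 from 135043721 to 135045062 (GRCh37, ENSG00000171794), and its transcript was the richest in G and C of the 9, at 76.9%. The 250 bases before its RefSeq start site (GRCh38.p14, chr10:133229967-133230216, plus strand) are shown as the window of the factor with the least left. Capitals mark 4 copies of GGGCGG, the letters of the GC box, in 2 pairs whose copies share 1 base.
UTF1: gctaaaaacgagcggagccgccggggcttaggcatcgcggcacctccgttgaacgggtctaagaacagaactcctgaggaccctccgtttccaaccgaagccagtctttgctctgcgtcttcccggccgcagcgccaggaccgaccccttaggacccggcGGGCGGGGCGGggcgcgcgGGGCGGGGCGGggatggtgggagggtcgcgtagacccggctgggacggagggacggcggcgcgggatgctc
GGGCGG was found on either strand in 42.3% of the 27305 promoter windows. The UTF1 window held 70.8% G and C and 32 CpG dinucleotides, against medians of 58% and 11 over all windows.

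ZSCAN10, a zinc finger factor with a SCAN domain that works with OCT4 and SOX2, had the highest estimated kept share after KLF4. Its counts were 2428, 3149 and 2853 in hESCs and 1973, 1755 and 1848 in NMP-L cells. The lowest hESC library, replicate 1, was still above all NMP-L libraries. ZSCAN10 fell from 147 ± 16.3 to 83.1 ± 5.69 CPM (log2 fold change -0.82, SE 0.10, edgeR adjusted p = 2.6e-05), with 56.6% kept (95% interval 48.8 to 65.6%). It lies on the minus strand of chromosome 16 from 3138891 to 3149296 (GRCh37, ENSG00000130182). Its transcript came second to that of UTF1 in G and C, at 66.9%. Its window before the RefSeq start (GRCh38.p14, chr16:3099295-3099544, minus strand) is shown beside that of UTF1 as the window of a factor of which most was left, with 1 GC box, read here as the reverse complement CCGCCC, in capitals.
ZSCAN10: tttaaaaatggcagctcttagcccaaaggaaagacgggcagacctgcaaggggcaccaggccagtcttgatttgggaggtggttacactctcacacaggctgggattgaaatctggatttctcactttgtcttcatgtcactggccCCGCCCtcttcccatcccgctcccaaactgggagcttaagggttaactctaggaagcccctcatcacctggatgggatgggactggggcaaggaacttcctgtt
The ZSCAN10 window held 53.2% G and C and 3 CpG dinucleotides. The G and C share was 69.2% in KLF4, 74.4% in ZFP42, 52% in DPPA2, 47.6% in NANOG and 43.2% in DPPA4. Their CpG counts, in that order, were 25, 23, 7, 4 and 3. The window of KLF4, the factor with the highest estimated kept share, was thus close to that of UTF1, the factor kept least. A relation of these contents to the kept shares was not tested. RefSeq windows were at hand for 7 of the 9 factors. GGGCGG occurred in 5 of these 7, with 4 copies in KLF4, 3 in ZFP42 and 1 in DPPA4 besides the UTF1 and ZSCAN10 copies. Windows with it thus belonged to the factor kept least and to the factor with the highest estimated share. GGGTGTG occurred in NANOG and DPPA2. ATCAAAG, a TCF/LEF-type motif present in 2.28% of all windows, occurred in 0 of the 7.

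Neighbours in the order of the kept shares were set side by side by the log2 ratio of both counts within each library, which does not depend on the scaling between libraries. The order came from these same counts, so the sign of each ratio change was fixed by it, and the values are a description with no test. The ratio of UTF1 to NANOG fell by 0.82 on the log2 scale, that of NANOG to DPPA2 by 0.70, that of DPPA2 to PRDM14 by 0.21, that of PRDM14 to ZFP42 by 0.30 and that of ZFP42 to DPPA4 by 0.22. In these 5 of 8 pairs the NMP-L libraries all lay below the hESC libraries, and no such count was made for other gene pairs. The ratios of the groups overlapped for DPPA4 to POU5F1 (-0.25), POU5F1 to ZSCAN10 (-0.10) and ZSCAN10 to KLF4 (-0.32). The order within each of these pairs, and so the last place of KLF4, is thus within the spread of the libraries.

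**Figure D2:**
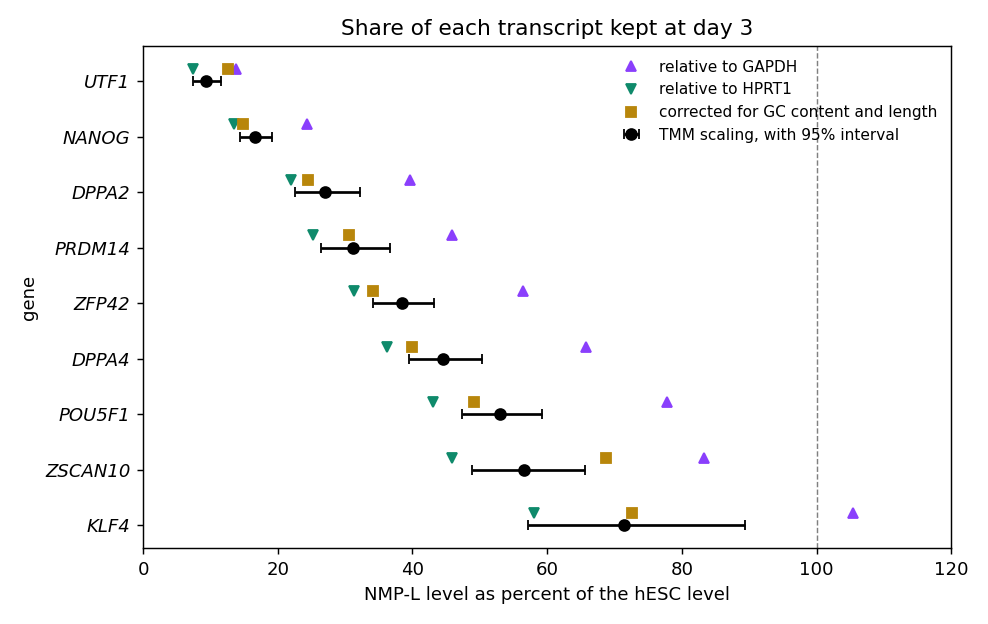
Share of the hESC level kept in NMP-L cells for each factor, in percent on a linear axis, as black points with 95% intervals under TMM scaling and as coloured points relative to GAPDH, relative to HPRT1, and after a correction for GC content and transcript length. The black points run from 9.31% for UTF1 to 71.5% for KLF4, and KLF4 relative to GAPDH is the 1 point to the right of 100%.

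The size of every fall depended on the scale between libraries. Relative to GAPDH, which moved the median of all genes by 0.56 on the log2 scale, 8 factors were lower and past the threshold, as were 9.2% of all genes tested. POU5F1 then had a log2 fold change of -0.36 and ZSCAN10 of -0.26 (edgeR adjusted p = 0.0037 and 0.036), and KLF4 had one of 0.08 (edgeR adjusted p = 0.70). With this scale 4 factors, UTF1, NANOG, DPPA2 and PRDM14, were at least 2-fold lower, against 4.49% of tested genes. Relative to HPRT1, which moved the median by -0.30, all 9 were lower and 8 of them at least 2-fold, on a background of 34.1% of tested genes called lower and 14.1% at least 2-fold lower. A correction for GC content and transcript length left all 9 lower, with 36.7% of tested genes then called lower. At least 2-fold lower were then 7 factors, now with POU5F1 (log2 fold change -1.03), against 9.63% of tested genes. The kept share of the GC-rich transcripts became 12.6% for UTF1 and 68.8% for ZSCAN10.

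Per length, the factors covered a wide range of levels. In hESCs the order of the mean TPM was POU5F1 (1990), DPPA4 (738), ZFP42 (233), UTF1 (132), ZSCAN10 (115), NANOG (93.1), DPPA2 (59.8), PRDM14 (48.4) and KLF4 (4.75). UTF1 and ZSCAN10 were the only neighbours in this order whose libraries overlapped. In NMP-L cells the order was POU5F1 (1128), DPPA4 (351), ZFP42 (96.0), ZSCAN10 (69.2), DPPA2 (17.3), NANOG (16.5), PRDM14 (16.1), UTF1 (13.2) and KLF4 (3.63). Here DPPA2 overlapped with NANOG and NANOG with PRDM14, while UTF1 had dropped below all 3. The 4 genes UTF1, NANOG, DPPA2 and PRDM14, which spanned 48.4 to 132 TPM in hESCs, thus lay between 13.2 and 17.3 TPM in NMP-L cells. The summed TPM of the 9 factors was 3398 to 3427 in hESCs and 1687 to 1747 in NMP-L cells. POU5F1 made up 56.8 to 60.4% of it in hESCs and 64.7 to 66.8% in NMP-L cells.

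**Figure D3:**
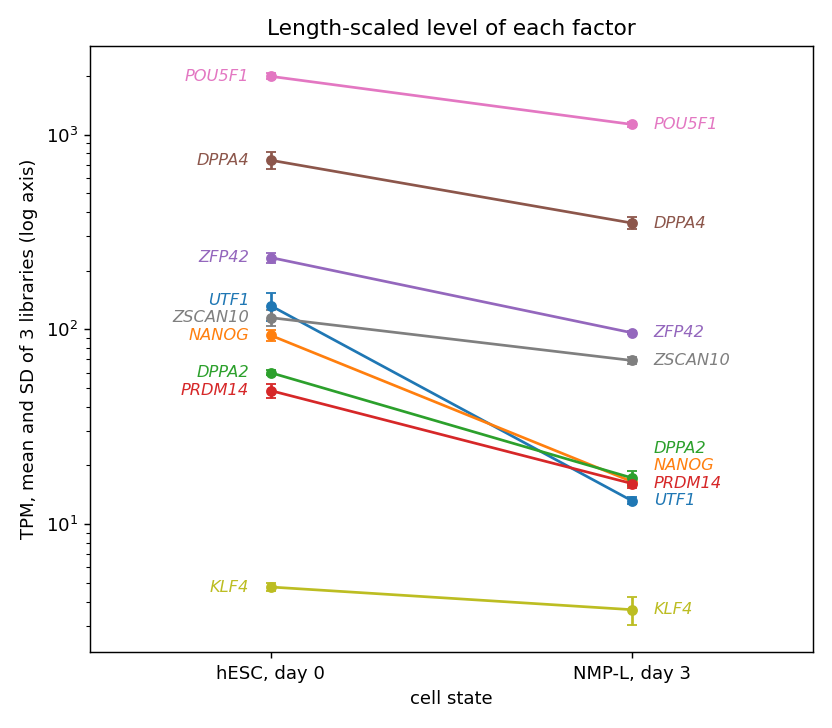
Mean TPM of each factor in hESCs (day 0) and NMP-L cells (day 3) on a log axis, with SD bars over 3 libraries and 1 line per gene. The lines of UTF1 and NANOG are the steepest and join those of DPPA2 and PRDM14 at 13.2 to 17.3 TPM, while POU5F1 stays on top at 1990 and 1128 TPM.

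Genes that act with the 9 factors mostly fell as well. Of 20 genes of the general pluripotency network, 19 were tested, 16 were lower, 1 was higher and 2 did not pass, with a median log2 fold change of -1.59. FOXD3, a forkhead repressor of stem cells, fell most, from 21.2 ± 2.47 to 0.73 ± 0.09 CPM, so that 3.47% was kept (edgeR adjusted p = 2.9e-09). GDF3, a TGFβ family ligand, kept 7.61% and the homeobox gene VENTX 14.4%. DNMT3B, a de novo DNA methyltransferase, kept 30.6%, the telomere protein gene TERF1 27.8%, and SALL4, a zinc finger partner of OCT4, 61.4% (edgeR adjusted p = 9.7e-06 or smaller for these 3). NODAL was the gene that rose, from 2.28 ± 0.34 to 11.1 ± 0.61 CPM (log2 fold change 2.28, SE 0.15, edgeR adjusted p = 2.5e-07). SOX2, the DNA partner of OCT4, had a log2 fold change of 0.06 (SE 0.08, edgeR adjusted p = 0.53), and LIN28A, an RNA-binding protein of stem cells, of -0.15 (SE 0.06, edgeR adjusted p = 0.073). Relative to GAPDH 12 of the 19 were lower and 3 higher, and relative to HPRT1 16 were lower and 1 higher.

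Genes of the naive state split in both directions. Of 15 listed genes 11 were tested, of which 8 fell and 3 rose, with a median log2 fold change of -1.62. DPPA5, an RNA-binding KH-domain gene, had 171, 198 and 176 counts in hESCs and 0, 1 and 1 in NMP-L cells. It was at least 70.7-fold lower against the floor of 3 counts per library. DPPA3 was at least 13.5-fold lower, and the ligand gene FGF4 kept 5.39% (edgeR adjusted p = 1.5e-07). KLF5, a relative of KLF4, rose from 5.51 ± 1.53 to 21.5 ± 2.71 CPM (log2 fold change 1.97, SE 0.18, edgeR adjusted p = 3.4e-06). TFCP2L1 rose by 1.59 and SUSD2 by 1.18 on the log2 scale. KLF2, the other tested relative of KLF4, was at 20, 19 and 12 counts in hESCs and 1, 14 and 4 in NMP-L cells (log2 fold change -1.62, edgeR adjusted p = 0.033), with overlapping groups, and KLF17 was at 0 or 1 count in all libraries. Relative to GAPDH 6 of the 11 were lower and 3 higher, and relative to HPRT1 8 and 3.

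Of 11 genes of the primed state, in which hESCs are usually kept, 10 were tested, 5 were lower, 2 were higher and 3 did not pass, with a median log2 fold change of -0.55. THY1, a surface marker, kept 20.5% and the homeobox gene OTX2 46.3%, while ZIC2, a zinc finger gene, rose 2.16-fold and SFRP2, a secreted Wnt modulator, 2.41-fold. Relative to GAPDH 4 of these 10 were lower and 5 higher, and relative to HPRT1 6 and 2.

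**Figure D4:**
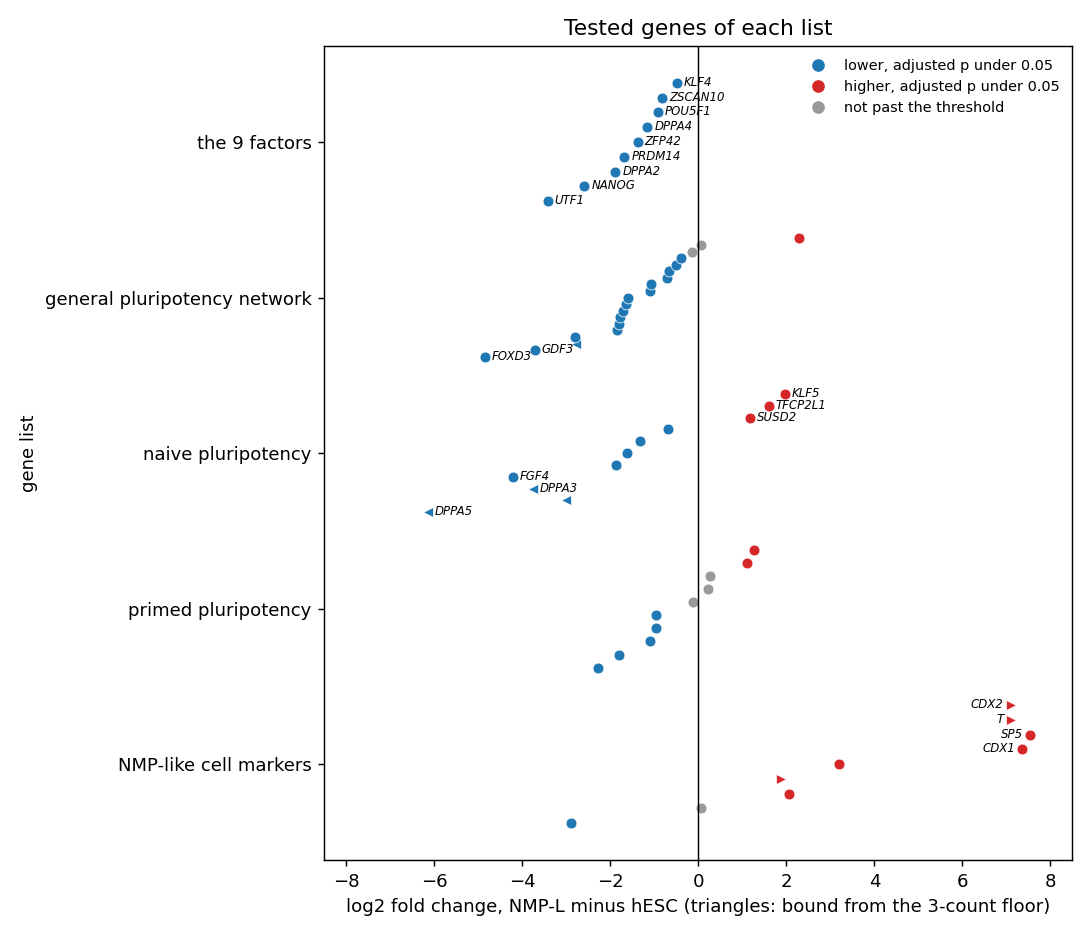
Log2 fold change (NMP-L minus hESC) of every tested gene of the 9 factors and of 4 gene lists, 1 point per gene, coloured by direction where the edgeR adjusted p is under 0.05 and grey otherwise, with triangles at the bound set by the floor of 3 counts. The 9 factors and most of the general network lie left of 0 under TMM scaling (relative to GAPDH KLF4 lies at 0.08), the naive list reaches from DPPA5 on the left to KLF5 on the right, and most NMP-like cell markers lie to the right.

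Markers of other cell states were read in the same comparison, in which 29.1% of all tested genes were called higher and 26.7% lower. Of 10 NMP-like cell markers 9 were tested, 7 were higher, 1 was lower and 1 did not pass, and their summed level was 267 to 289 CPM at day 0, nearly all of it SOX2, and 362 to 442 CPM at day 3. Of 8 mesoderm markers 4 were tested, with 2 higher and 1 lower and sums of 6.51 to 8.79 and 11.3 to 11.5 CPM. Of 7 endoderm markers 3 were tested and 2 were higher, with sums of 5.55 to 6.21 and 20.8 to 32.9 CPM, most of the latter FOXA2, while SOX17 was at 0 or 1 count in every library. Of 6 neural markers 3 were tested, with 2 higher and 1 lower and sums of 2.71 to 4.42 and 10.8 to 14.9 CPM. Of 8 amnion and trophoblast markers only KRT7 was tested, which was higher. That list summed to 5.50 to 6.05 and 11.3 to 14.6 CPM, with CGA and CGB5 at 0 in all NMP-L libraries. Whether cells of these other types were present, or had a part in the falls of the 9 factors, was not tested. Within the NMP-L group, replicate 2 had the lowest T level, at 14.0 CPM against 24.1 and 26.3. In CPM it had the highest level of 7 of the 9 factors, all but ZSCAN10 and KLF4. How many of all tested genes were highest in this library was not counted, so this says nothing particular about the factors. In TPM, replicate 3 was instead the highest for NANOG (17.2 against 16.5 in replicate 2) and for DPPA4 (372 against 357). The margins were small, with POU5F1 at 735 CPM in replicate 2 against 715 and 656, and they were not tested.

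The position of the factors was not used to choose them. Of the 18 nearest genes on each side (GENCODE release 44 on GRCh37, genes with a row in the table), 11 were tested, 7 were lower, 1 was higher and 3 did not pass. These include DPPA2 and DPPA4 as neighbours of each other. Genes that overlap a factor, such as TCF19 at POU5F1, were not counted as neighbours. Of the 9 tested neighbours that are not among the factors, 5 were lower and 1 was higher, where 26.7% of all tested genes were lower and 29.1% higher. Among these 5, VENTX is also a gene of the general pluripotency network list and was counted there. VENTX, which begins 6297 bases beyond UTF1, had 474, 542 and 505 counts in hESCs and 86, 77 and 93 in NMP-L cells (log2 fold change -2.80, SE 0.12, edgeR adjusted p = 6.4e-09). KNDC1, on the other side of UTF1 at 3805 bases, did not pass (log2 fold change 0.12, edgeR adjusted p = 0.36). TRIML2, 86226 bases from ZFP42, kept 13.9%, and IL32, an immune cytokine gene 6698 bases from ZSCAN10, kept 8.71% at low counts of 49 to 71 in hESCs and 4 to 7 in NMP-L cells. SLC2A14, a glucose transporter gene next to NANOG, kept 64.4%, and its counts were not whole numbers, so that reads were shared with another gene. CCHCR1, beside POU5F1, did not pass (log2 fold change -0.27, edgeR adjusted p = 0.058), and NCOA2, beside PRDM14, rose by 0.45 on the log2 scale (SE 0.14, edgeR adjusted p = 0.015).

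Over the 6 libraries, the genes whose centred log2 CPM profile lay nearest to that of POU5F1 were PRDX1, a peroxiredoxin, TALDO1, transaldolase of the pentose phosphate pathway, and TAGLN, an actin-binding protein. Their root mean square distances were 0.02, 0.03 and 0.04, and PRDX1 fell from 1083 ± 49.9 to 561 ± 36.6 CPM. Nearest to NANOG were LITAF (0.07), the taurine transporter SLC6A6 (0.10) and ATP8B3 (0.10), of which LITAF fell from 371 ± 7.26 to 66.0 ± 3.04 CPM. With 2 groups of 3 libraries such nearness says little beyond a fall of like size.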

How the data were processed

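Polyadenylated RNA from 3 hESC and 3 NMP-L libraries was sequenced as single-end reads of 76 bases. The deposited table holds, for each gene, the authors' RSEM expected counts, not normalized between libraries, and TPM values from the same run, scaled for transcript length. The submitters' processing notes name cutadapt 1.9.1, STAR 2.5.2a, RSEM 1.3.0, DESeq2 1.12.3 and hg19. The annotation and the strand setting are not given in the sources used here. RSEM divides reads between near-identical genes, and 8.44% of genes had a count that was not whole.

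Counts were rounded and tested with edgeR 4.0.16 in R 4.3.3 (filterByExpr with a minimum count of 10, TMM, glmQLFit and glmQLFTest, Benjamini-Hochberg over the 15517 genes tested, threshold 0.05). The SE is the log2 fold change divided by the square root of F. Kept shares are 100 times 2 to the power of the log2 fold change, with 95% intervals from the SE. Ratios within libraries used a pseudocount of 0.5 count. Where all libraries of a group were at or under 3 counts, this floor, which covers counting error only, gave a bound. The procedure was tested on simulated counts in which a small part of the genes changed by known folds in both directions. Far more genes were called in the real data, so the simulation does not bear on the choice of scaling. DESeq2 1.42.0 was an alternative, and Python 3.11.15 and matplotlib 3.10.9 drew the figures. Every column of the table belonged to a library of this series.

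The members and all gene lists were chosen with earlier results of these data known. The text names the members, list genes, the nearest gene on each side, the 3 genes with the profile nearest to POU5F1 and to NANOG, and TCF19, chosen after its values were seen because it overlaps POU5F1. Promoter windows and motifs came from RefSeq on GRCh38.p14 and gene positions from GENCODE release 44 on GRCh37, to which 23876 of 27672 symbols matched. No coordinate was converted. No batch is given in the labels.

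Alternatives were RLE, upper-quartile and library-size scaling, counts relative to GAPDH or HPRT1, DESeq2, other count filters, the replicate number as a block, each library left out, POU5F1 summed with its copies, and a pseudocount of 3. A lowess correction for GC content and length (span 0.3, on 14526 tested genes) was added after the data were seen.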

Additional observations from a re-analysis of the deposited data

How the results depend on the processing

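Of 154 member values recomputed under the alternatives, 152 kept their direction and their side of the threshold. The other 2 belong to KLF4, which reversed to 0.077 relative to GAPDH and was -0.38 (edgeR adjusted p = 0.057) without NMP-L replicate 2. The cause was not tested. Without each library in turn, 7172 to 8801 genes were called, with 8 to 9 of the factors past the threshold and 6 at least 2-fold lower. Of called genes 52.1% were higher, which became 87.5% of 11455 relative to GAPDH, 25.3% of 7087 relative to HPRT1 and 42.8% of 9960 after the GC and length correction. No source says whether the replicate numbers pair the libraries. Deviations from the group means had correlations of -0.37, -0.06 and -0.13 between libraries of the same number. With 3 libraries per group these values cannot settle whether the cultures were paired. With the replicate block 7560 genes were called, 7517 of them shared, and all 9 factors kept their call, KLF4 with edgeR adjusted p = 0.030. NANOG was not summed with copies, since no row for them was analysed here.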
